A study of Mus musculus with 20 samples.

Results

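The genes described here are the expressed Zfp-numbered zinc finger genes of mouse spermatocytes. They were chosen from a table of FPKM values, a measure of level corrected for gene length and sequencing yield, as the symbols made of Zfp and a number that reached 1 FPKM in at least 6 of 12 libraries. Of 340 such symbols among 23235 genes in the table, 204 passed and are called members below. Another 78 never reached 1 FPKM and 58 reached it in 1 to 5 libraries. Because measured levels chose the members, their levels are a description, and a gene that is high in 1 genotype only could pass through that genotype. A gene that is high in 1 stage could likewise pass mainly through that stage. Of the members, 142 reached 1 FPKM in all 12 libraries and 62 in 6 to 11. There were 29 members that reached it in more Cxxc1-null than WT libraries, and 17 with the reverse. The members nearest the threshold were Zfp120, Zfp937 and Zfp711, whose sixth highest values were 1.014, 1.018 and 1.028 FPKM. Zfp69, Zfp458 and Zfp345 fell just outside it at 0.9895, 0.9713 and 0.9506 FPKM. The symbol is a name and not a protein class. RefSeq lists 202 members as protein coding and Zfp389 and Zfp572 as transcribed pseudogenes.

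Flow cytometry was used to sort spermatocytes of adult C57BL/6 mice, either wild type (WT) or labelled Cxxc1-null, at pachytene, diplotene and meiosis II. Each of the 6 groups had 2 RNA libraries of 500 cells, made with Smart-seq2, a full-length method primed on poly(A) tails. The alleles behind the Cxxc1-null label, the cell type in which the gene was deleted and the age of the mice in days are not given in the sources used here. The labels do not tie a library to an animal, so the p-values below measure the spread between libraries, which may be technical.

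Most C2H2 zinc finger proteins bind DNA through tandem fingers that each read a few bases. The largest mouse subgroup carries a KRAB domain, which recruits TRIM28 (KAP1) and with it histone deacetylases, the H3K9 methyltransferase SETDB1 and HP1, and many of these proteins silence retroelements. Their genes lie in clusters that arose by tandem duplication. Cxxc1 encodes the CpG-binding subunit of the SETD1 complexes, which place H3K4 trimethylation at promoters rich in CG dinucleotides. No protein sequences were used here, so members were not divided by domain, and reads from similar genes of a cluster may have been assigned to the wrong copy.

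Promoters of 4 members on chromosome 13 are shown first, because neighbours there behaved differently. The levels of Zfp58, Zfp72 and Zfp759 rose into meiosis II, whereas Zfp748, next to Zfp87 in the same cluster as Zfp58, did not pass the test. Windows are 300 bases around the RefSeq start site in GRCm38.p6, a different build from the mm9 of the expression files, and were matched by symbol. They run 5′ to 3′ along the gene. The coordinates are chr13:67500473-67500772 (minus strand) for Zfp58, chr13:74390780-74391079 (minus) for Zfp72, chr13:67127978-67128277 (plus) for Zfp759 and chr13:67553103-67553402 (minus) for Zfp748. Capitals mark TTGTGGGAANTGTAGTC, the longest stretch that the windows of Zfp58, Zfp72 and Zfp759 share when 1 base may differ (N).
Zfp58: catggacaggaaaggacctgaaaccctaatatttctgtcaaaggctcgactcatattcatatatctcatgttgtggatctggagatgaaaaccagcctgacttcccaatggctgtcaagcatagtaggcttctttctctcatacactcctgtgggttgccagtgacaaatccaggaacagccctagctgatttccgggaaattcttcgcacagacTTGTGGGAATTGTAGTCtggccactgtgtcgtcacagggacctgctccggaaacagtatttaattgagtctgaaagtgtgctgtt
Zfp72: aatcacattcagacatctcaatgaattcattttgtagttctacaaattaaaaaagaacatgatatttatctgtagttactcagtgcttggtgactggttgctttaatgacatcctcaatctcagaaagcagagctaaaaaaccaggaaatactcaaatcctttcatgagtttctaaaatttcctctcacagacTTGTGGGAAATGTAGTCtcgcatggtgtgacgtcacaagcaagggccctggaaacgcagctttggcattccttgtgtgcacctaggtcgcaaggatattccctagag
Zfp759: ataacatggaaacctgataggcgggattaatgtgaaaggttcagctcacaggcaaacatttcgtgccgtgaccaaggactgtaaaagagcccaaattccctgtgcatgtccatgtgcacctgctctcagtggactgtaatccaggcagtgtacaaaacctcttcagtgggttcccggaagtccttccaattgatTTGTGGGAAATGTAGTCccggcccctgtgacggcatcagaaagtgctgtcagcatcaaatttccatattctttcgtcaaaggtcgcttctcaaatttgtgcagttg
Zfp748: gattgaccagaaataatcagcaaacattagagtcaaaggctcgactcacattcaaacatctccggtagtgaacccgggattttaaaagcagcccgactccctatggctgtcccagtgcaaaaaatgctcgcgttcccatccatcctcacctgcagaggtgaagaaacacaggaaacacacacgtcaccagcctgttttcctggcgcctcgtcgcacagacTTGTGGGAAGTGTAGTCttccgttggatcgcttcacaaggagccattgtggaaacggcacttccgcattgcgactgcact
The stretch is 17 bases long and was taken from the first 3 of these windows, so they hold it by construction. Its reverse complement resembles the known recognition sequence of ZNF143, whose mouse gene, Zfp143, is itself a member. Both strands of all windows were searched. RefSeq windows were found for 171 members, and 8 of these (4.68%) held the stretch. All 8 lie on chromosome 13, where 15 members have a window. It was held by 12 (0.139%) of the 8636 genes with a window that pass the same level rule, and by 23 (0.0851%) of all 27025 genes with a window, of which 16 are on chromosome 13. The other 5 members with it, Zfp595, Zfp712, Zfp738, Zfp748 and Zfp953, did not pass for the WT change into meiosis II. Zfp712 did rise over that step in Cxxc1-null cells, by 1.06 (limma, adjusted p = 0.015). Members called as rising and members not called both carry these letters. A match describes a sequence and is not a measured binding site.

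Promoters of members that differed between genotypes are shown because Cxxc1 protein binds unmethylated CG, and CG is in capitals. Zfp664 (chr5:124862455-124862754, plus) and Zfp367 (chr13:64153150-64153449, minus, the first of 2 windows) were lower in Cxxc1-null cells. Zfp637 (chr6:117840931-117841230, plus, the first of 2 windows) was higher.
Zfp664: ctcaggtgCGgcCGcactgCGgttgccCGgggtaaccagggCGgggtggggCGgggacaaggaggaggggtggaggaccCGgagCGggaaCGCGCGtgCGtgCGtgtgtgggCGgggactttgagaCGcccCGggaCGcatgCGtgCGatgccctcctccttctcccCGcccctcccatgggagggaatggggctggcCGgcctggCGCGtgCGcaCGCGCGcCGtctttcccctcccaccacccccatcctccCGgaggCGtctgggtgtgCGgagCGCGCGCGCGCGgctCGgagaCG
Zfp367: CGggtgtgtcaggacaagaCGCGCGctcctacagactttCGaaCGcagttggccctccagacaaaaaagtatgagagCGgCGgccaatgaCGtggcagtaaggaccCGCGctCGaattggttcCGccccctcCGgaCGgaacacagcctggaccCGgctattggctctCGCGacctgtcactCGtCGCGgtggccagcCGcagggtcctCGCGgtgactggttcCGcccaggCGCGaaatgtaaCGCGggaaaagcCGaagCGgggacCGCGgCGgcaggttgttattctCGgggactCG
Zfp637: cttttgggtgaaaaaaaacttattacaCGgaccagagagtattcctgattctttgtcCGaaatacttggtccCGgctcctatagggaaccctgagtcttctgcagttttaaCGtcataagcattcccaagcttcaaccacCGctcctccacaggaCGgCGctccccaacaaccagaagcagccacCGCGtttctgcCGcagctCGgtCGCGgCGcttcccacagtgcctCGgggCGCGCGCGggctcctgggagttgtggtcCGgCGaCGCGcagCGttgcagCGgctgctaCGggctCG
The windows hold 39 CG in Zfp664, 36 in Zfp367 and 27 in Zfp637. The second windows hold 31 in Zfp367 and 35 in Zfp637, so the order of these 2 genes depends on the window. By comparison Zfp58, Zfp72 (the first of 2 windows) and Zfp759, which rose into meiosis II, hold 5, 4 and 8. They lie low among the 13 risers with a window, whose median was 15, against 17 in the fallers. The median window of the members had 17 CG and 56% G or C, against 20 CG and 59.7% in genes that pass the same level rule. H3K4me3 data were not analysed here.

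The level of a member averaged over the 12 libraries ran from 0.924 to 173 FPKM, with a median of 6.33 FPKM. There were 66 members at 10 FPKM or more, 11 at 50 or more and 34 under 2. Zfp672 had the highest level, a mean of 173 FPKM, with 100 FPKM in its lowest library and 248 FPKM in its highest. Below it came Zfp35 (117 FPKM), the pseudogene Zfp389 (99 FPKM), Zfp39 (88.7 FPKM) and Zfp956 (87.6 FPKM). The next were Zfp511 (75.6 FPKM), Zfp207 (73.1 FPKM), which encodes the spindle and kinetochore protein BuGZ, and Zfp654 (64.7 FPKM). The library ranges of neighbours in this order all overlap, so the order is not firm. Across libraries 172 to 199 members reached 1 FPKM. The median member stood at 6.33 to 6.78 FPKM in pachytene, 5.2 to 6.36 in diplotene and 3.79 to 4.75 in meiosis II, so every meiosis II library lay below every earlier one. Genes that pass the same level rule had medians of 10.07 to 12.56 FPKM with no such step. Members were spread over many chromosomes, with 51 on chromosome 7, 21 on 17, 17 on 13 and 1, Zfp711, on the X.

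Cxxc1 itself, the check of the labels, was 11.7 and 17.3 FPKM in WT pachytene against 9.19 and 9.57 in Cxxc1-null. It was 13.7 and 17.6 against 9.57 and 8.29 in diplotene, and 12.5 and 12.8 against 3.1 and 2.02 in meiosis II. Cxxc1 transcript was thus still present in the libraries labelled Cxxc1-null, and it was nearer the WT level in pachytene and diplotene than in meiosis II. A level summed over the gene does not show whether the remaining transcript carries the deletion. All 12 pachytene markers had a mean of at least 1 FPKM in every group. Some, such as Ldhc, stayed high, whereas Sycp3 was 904 to 2419 FPKM in pachytene, 377 to 477 in diplotene and 140 to 187 in meiosis II. The 12 spermatid markers in the table summed to 8124 to 11040 FPKM in WT meiosis II, 3016 to 5194 in Cxxc1-null meiosis II and 844 to 2437 at earlier stages, and none was at 0. The 13 Sertoli markers summed to 289 to 419 FPKM in meiosis II against 6.45 to 61.7 earlier, with Clu highest and Sox9 at 1.5 to 2.13 FPKM, while Amh stayed at or below 0.144 FPKM. The 12 spermatogonial markers summed to 92.8 to 151 FPKM in pachytene and 19 to 23.8 in meiosis II. Id4 made up most of the sum in pachytene, with a mean of 95 FPKM in WT. From diplotene to meiosis II in WT, 1 of the 10 tested rose and 1 fell. The part of these differences in the results for meiosis II was not tested. In sorted pools, fewer cells of a type and less RNA per cell cannot be told apart.

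**Figure D1:**
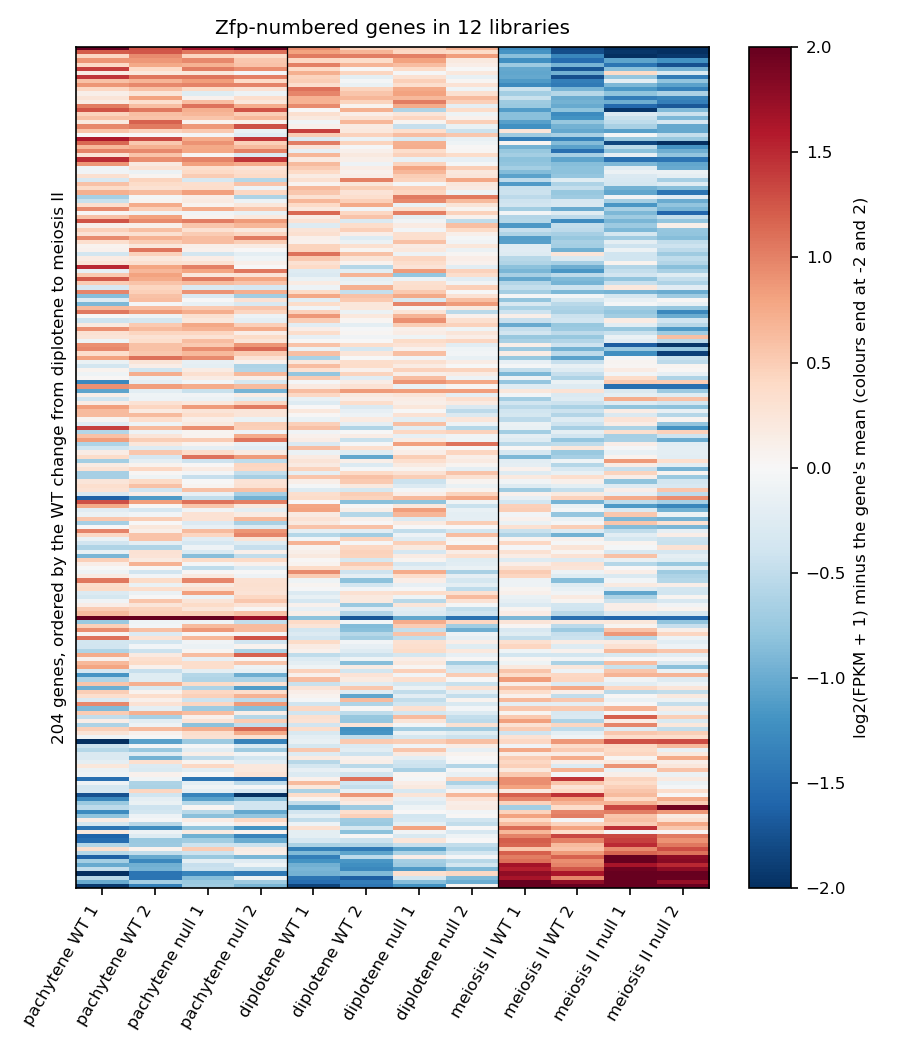
Level of each of the 204 members (rows, ordered by the WT change from diplotene to meiosis II) in the 12 libraries (columns), as log2(FPKM + 1) minus the gene's mean, with colours ending at -2 and 2. Most rows are bluer (lower) in the 4 meiosis II columns, and a small block at the bottom is red (higher) there in both genotypes.

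Differences between groups were tested with limma on log2(FPKM + 1) over 12956 genes, with Benjamini-Hochberg adjustment over all of them, and "rose", "fell", "higher" and "lower" below are used for an adjusted p under 0.05. Log2 changes are differences on this scale, given ± standard error, and they understate the change of low genes. From pachytene to diplotene in WT, 42 of 204 members changed, 13 up and 29 down. The share of all genes tested that changed was 26.5% (9.08% up and 17.4% down), and among genes that pass the same level rule it was 28.3%, so the members' 20.6% was not above the background. Their median log2 change was -0.12, close to -0.11 over all genes tested. The direction of this split turns with the scaling. After quantile normalization 30 members rose and 14 fell, with 13.4% of all genes tested up and 13.3% down. The medians were then 0.04 for members and 0.03 for all genes. A common median gave 17 members up and 28 down, with 10.6% of all genes tested up and 16.8% down. Without WT pachytene replicate 2 there were 27 up and 28 down. The fitted count rests on single libraries. It was 8 without WT pachytene replicate 1, 9 without WT diplotene replicate 2, 26 without WT diplotene replicate 1 and 0 when only these 2 groups were fitted.

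The largest fall was that of Zfp820. It stood at 83.7 and 20.8 FPKM in WT pachytene and at 1.43 and 0.322 FPKM in WT diplotene, and at 18.9 and 13.1 against 1.08 and 0.523 FPKM in Cxxc1-null cells. All 4 pachytene libraries lay above all 8 later ones, and the log2 change in WT was -4.58 ± 0.55 (limma, adjusted p = 0.0009). With a sixth highest value of 1.253 FPKM, Zfp820 passed the level rule narrowly and largely through pachytene. The rule therefore favours a gene with this fall. Zfp326, a subunit of a complex that couples transcription to splicing, went from 27.9 and 22.4 to 6.7 and 7.68 FPKM in WT, a log2 change of -1.67 ± 0.25 (limma, adjusted p = 0.0022). It fell again into meiosis II, to 2.65 and 2.71 FPKM. Zfp330, a nucleolar protein, dipped in diplotene. Its WT values were 39.7 and 32.9 FPKM in pachytene, 11.7 and 11.2 in diplotene, and 46.7 and 47.1 in meiosis II, with no overlap between diplotene and the other stages. The falls of these 3 genes passed in every alternative but the fit of only these 2 groups. Zfp825, Zfp655 and Zfp3 had the next largest falls, with log2 changes of -1.47 to -1.27. Zfp825 and Zfp655 lost their call without WT pachytene replicate 1 (-1.25 and -1.20) or WT diplotene replicate 2 (-1.05 and -1.13), and Zfp3 without WT diplotene replicate 1 (-0.96).

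The rises into diplotene were led by Zfp296, a protein of pluripotent cells and heterochromatin. Its WT values went from 1.21 and 3.64 to 7.94 and 13.2 FPKM, with no overlap, a log2 change of 1.81 ± 0.38 (limma, adjusted p = 0.0079). Zfp524 went from 1.44 and 2.41 to 8.69 and 9.17 FPKM, a change of 1.78 ± 0.28 (limma, adjusted p = 0.0026), and it passed in every alternative but the fit of only these 2 groups. Zfp646, Zfp574, Zfp956 and Zfp39 rose by 1.33 to 1.68. Zfp296, Zfp646, Zfp574 and Zfp956 lost their call without WT pachytene replicate 1 (log2 changes of 1.28, 1.01, 0.67 and 0.94) or WT diplotene replicate 2 (1.48, 1.42, 0.88 and 1.25). Zfp39 lost it without WT pachytene replicate 1 (1.23) or WT diplotene replicate 1 (0.99). Of these, Zfp574 had the widest libraries, 7.2 and 20.9 FPKM in pachytene and 23.7 and 48.7 in diplotene. Of the 13 members that rose, 9 lie on chromosome 7, which holds 51 members, where the median log2 change was 0.33 and 5 members fell. Of all 997 genes tested on chromosome 7, 10.3% rose and 12.6% fell, with a median of 0.01. The count by chromosome was looked at after the values were seen and was not tested.

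The step from diplotene to meiosis II in WT changed 75 members, 16 up and 59 down. Among all genes tested 45% changed, 26.1% up and 18.9% down. Among genes that pass the same level rule 43.5% changed, 21.4% up and 22.1% down. The members' 36.8% was below both figures, but their split differed, with 7.84% up and 28.9% down. The median log2 change was -0.32 for members, 0.02 for all genes tested and -0.09 for genes at the same level, and it was positive for 72 of 204 members. Quantile normalization moved the median of all genes tested to -0.22 and that of members to -0.66. It gave 14 members up and 97 down, where 21.6% of all genes tested rose and 30.6% fell. A common median gave 16 members up and 66 down, where 25% of all genes tested rose and 20.9% fell. In WT, 98 members (48.0%) had their highest mean in pachytene, 54 (26.5%) in diplotene and 52 (25.5%) in meiosis II. Of the 10798 genes at the same level, 4322 peaked in pachytene, 2401 (22.2%) in diplotene and 4075 (37.7%) in meiosis II. Pachytene was thus the commonest peak stage in both sets, and the difference in shares was not tested. Of the risers 9 of 16, and of the fallers 22 of 59, did not reach 1 FPKM in all 12 libraries. Over this step 10 of 12 spermatid, 5 of 10 division and 10 of 10 Sertoli markers tested rose and none of them fell, and their part in the members' changes was not tested.

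Zfp474 rose most. Its WT values were 1.48 and 2.3 FPKM in diplotene and 35.3 and 39.2 in meiosis II, and its Cxxc1-null values 2.9 and 8.27 against 51.2 and 53 FPKM. The log2 change in WT was 3.74 ± 0.37 (limma, adjusted p = 4.3e-05), and the 4 meiosis II libraries lay above all others. Zfp711, an X-linked relative of Zfx, went from 0.155 and 0.272 to 14.6 and 10.5 FPKM in WT, a change of 3.47 ± 0.23 (limma, adjusted p = 1.7e-05). In pachytene it stood at 0.654 and 1.07 FPKM, and in Cxxc1-null meiosis II at 13.1 and 10.1 FPKM, which overlap the WT values. With a sixth highest value of 1.028 FPKM, Zfp711 passed the level rule mainly through meiosis II, so the rule favours a gene with this rise. The X chromosome is known to be silenced in pachytene spermatocytes. Zfp57, which keeps methylation at imprinted regions, stood at 0.403 and 1.92, then 3.16 and 3.35, then 26.4 and 24 FPKM over the 3 WT stages. Each stage lay above the one before without overlap, and the last step was 2.62 ± 0.32 (limma, adjusted p = 0.00011). Zfp37, a KRAB gene known for expression in testis, went from 7.74 and 6.71 to 35.9 and 27.9 FPKM, a rise of 1.99 ± 0.24.

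The pseudogene Zfp389 fell most into meiosis II. Its WT values were 252 and 127 FPKM in pachytene, 101 and 72.3 in diplotene and 21.1 and 14.1 in meiosis II, a last step of -2.24 ± 0.37 (limma, adjusted p = 0.0007). The 3 stages did not overlap. Zfp612 went from 9.73 and 8.82 to 1.71 and 0.782 FPKM (-2.22 ± 0.23). Zfp346, which encodes a protein that binds double-stranded RNA, went from 29.2 and 28.8 to 7.21 and 4.94 FPKM (-2.10 ± 0.24). Zfp961, Zfp952 and Zfp938 followed with -1.78, -1.67 and -1.58. These 6 fallers and the 6 largest risers (Zfp474, Zfp711, Zfp72, Zfp57, Zfp58 and Zfp759) passed under all 13 alternatives applied to them. Single libraries were left out only from the groups compared.

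**Figure D2:**
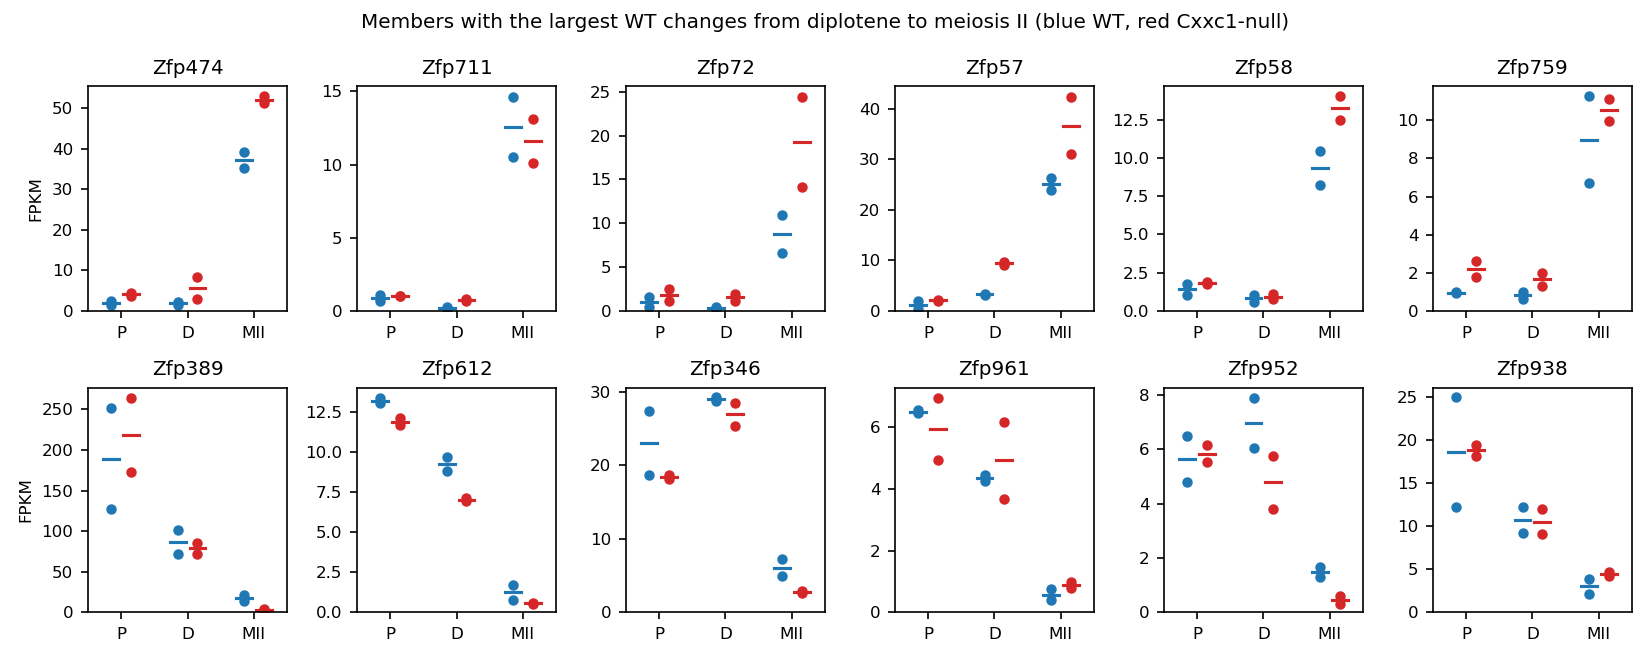
FPKM in each library (points) and the group mean (line) for the 6 members with the largest WT rise (top) and fall (bottom) from diplotene to meiosis II, by stage (P, pachytene; D, diplotene; MII, meiosis II), WT in blue and Cxxc1-null in red. The vertical scale differs between panels and starts at 0; in the top row the MII points of both genotypes lie above all P and D points.

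The Cxxc1-null libraries give each step a second time from separate libraries. The model uses the same variance per gene for both genotypes, so their calls are not independent. From pachytene to diplotene 52 members changed in Cxxc1-null cells, 24 up and 28 down, where 29.3% of all genes tested changed (11.9% up and 17.4% down). This split also turns after quantile normalization, to 32 up and 22 down, where 15.9% of all genes tested rose and 14.7% fell. Without Cxxc1-null pachytene replicate 2 the count was 2, without Cxxc1-null diplotene replicate 1 it was 14, and without the other library of these groups it was 25 and 22. From diplotene to meiosis II 81 changed, 20 up and 61 down, where 44.1% of all genes tested changed (25.3% up and 18.8% down). Without Cxxc1-null meiosis II replicate 2 the count was 47. Across the 204 members the WT and Cxxc1-null log2 changes correlated at r = 0.91 (Spearman's rho 0.90) for the first step and 0.89 (0.84) for the second, with the same sign in 178 members each time. Members are not independent replicates, so this is a description. Of the members that rose into meiosis II, 15 were called in both genotypes, 93.8% of the WT list and 75.0% of the Cxxc1-null list. Of those that fell, 46 were called in both, 78.0% and 75.4%. No member changed in opposite directions in the 2 genotypes at either step. The same overlaps and correlations over all genes tested are not given here. None of this can therefore be called particular to the members.

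**Figure D3:**
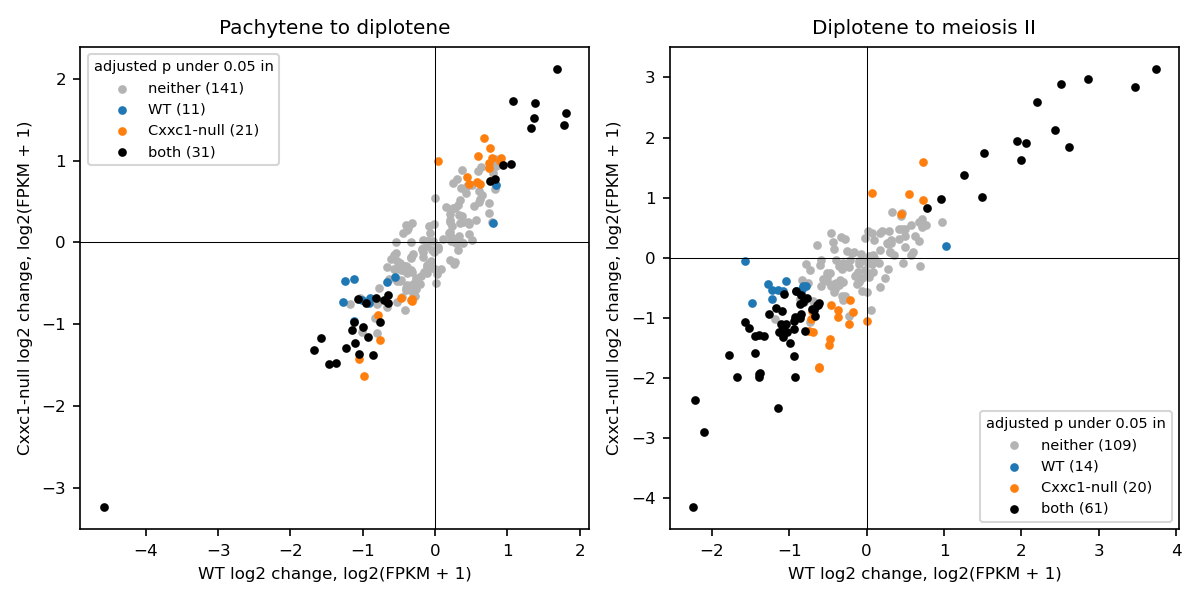
Log2 change of each member in WT (horizontal) and Cxxc1-null cells (vertical) from pachytene to diplotene (left) and from diplotene to meiosis II (right), 1 point per gene, coloured by the genotype in which limma's adjusted p was under 0.05. Points called in both genotypes (31 on the left, 61 on the right) lie only at the lower left and upper right.

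Of the 16 members that rose into meiosis II in WT, 5 lie on chromosome 13, which holds 17 members. They are Zfp72, Zfp58, Zfp759, Zfp87 and Zfp169, and Zfp169 was picked out only for its chromosome. Zfp389, Zfp346 and Zfp367 of the same chromosome fell, and the median log2 change of its members was -0.02. Of all 484 genes tested on chromosome 13, 27.5% rose and 17.1% fell, and the members' counts were not tested against these shares. Zfp58 stood at 1.06 and 0.582 FPKM in WT diplotene and 10.5 and 8.21 in meiosis II, and at 0.764 and 1.11 against 14 and 12.5 in Cxxc1-null cells. Zfp759 went from 0.977 and 0.645 to 11.3 and 6.7 FPKM in WT, and Zfp72 from 0.4 and 0.232 to 11 and 6.56 FPKM. In all 3 genes every meiosis II library lay above every earlier library, and the WT changes were 2.51 ± 0.24, 2.43 ± 0.27 and 2.86 ± 0.40. Zfp87, adjacent to Zfp58 with 0 coding genes between them in RefSeq, rose from 0.227 and 0.264 to 5.04 and 4.4 FPKM (limma, adjusted p = 5e-05). On the other side of Zfp87, also with 0 coding genes between, Zfp748 stood at 19.6 and 11.8 FPKM in diplotene and 15.6 and 10.5 in meiosis II, which overlap. Its change was -0.23 ± 0.38. Zfp595, Zfp953 and Zfp738 of the same region did not pass either, with changes of -0.47, -0.02 and -0.33. Zfp58 and Zfp748, whose promoters are printed above, share the stretch in capitals, and of the 2 only Zfp58 passed.

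**Figure D4:**
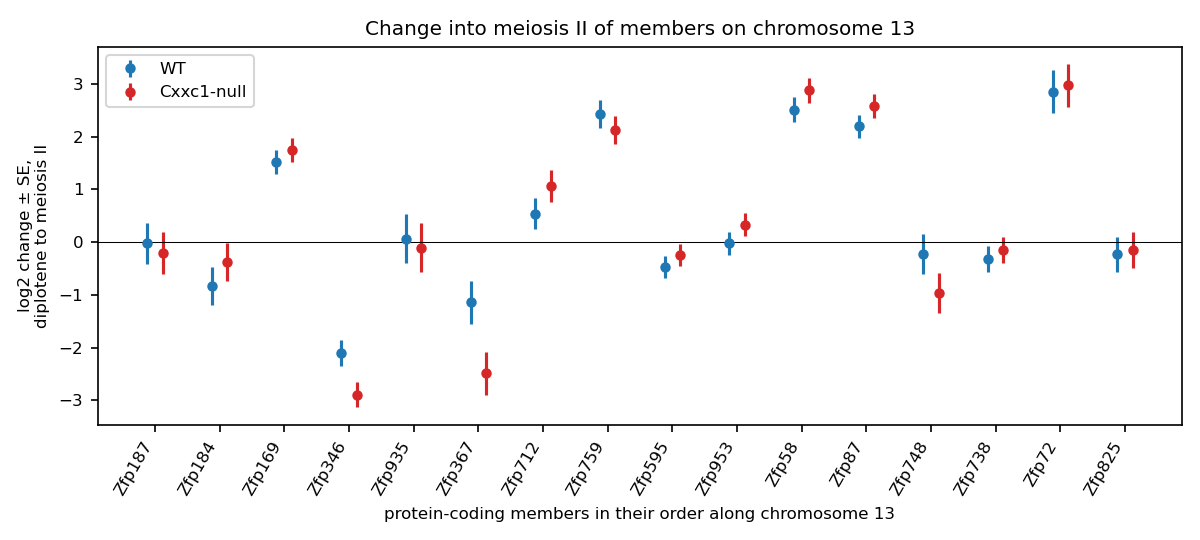
Log2 change from diplotene to meiosis II, with its standard error (bars), for the protein-coding members of chromosome 13 in their order along the chromosome (spacing not to scale), WT in blue and Cxxc1-null in red. Zfp759, Zfp58, Zfp87, Zfp72 and Zfp169 are above 1 in both genotypes, whereas Zfp595, Zfp953, Zfp748 and Zfp738 lie near or below 0.

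Between genotypes, meiosis II showed the differences within a stage. There 18 members differed, 8 higher and 10 lower in Cxxc1-null cells, or 8.82% of the members. The shares were 10.5% of all genes tested (6.14% higher and 4.35% lower) and 8.97% of genes that pass the same level rule, so the members were not called more often than other genes. In pachytene 0 members passed in limma (10 at an unadjusted p under 0.05, smallest adjusted p 0.237), where 0.355% of all genes tested did. In diplotene 0 passed (21 at an unadjusted p under 0.05, smallest adjusted p 0.0948), against 0.787% of all genes tested. Leaving out either WT pachytene replicate, or Cxxc1-null diplotene replicate 1, gave 1 call in diplotene. The F test for a genotype effect that differs between stages called 0 members (12 at an unadjusted p under 0.05) and 0.054% of all genes tested, so no member was shown to differ in its response between stages. The meiosis II count depends on the libraries. It was 2 without WT meiosis II replicate 1, 8 without WT replicate 2, 7 and 5 without Cxxc1-null replicates 1 and 2, 11 without either Cxxc1-null pachytene replicate, and 0 when only these 2 groups were fitted. In this comparison 0 of 12 spermatid markers passed, with a median log2 difference of -0.16, although their sum was lower in Cxxc1-null cells. Of 10 division markers 4 were lower and 0 higher, with a median of -0.65, and their sum was 1262 to 1572 FPKM against 1666 to 1910 in WT. The part of these markers in the members' differences was not tested.

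Zfp637 was the member with the largest increase. It stood at 5.53 and 12.5 FPKM in WT meiosis II and at 25.6 and 38.9 in Cxxc1-null meiosis II, without overlap, a log2 difference of 1.79 ± 0.35 (limma, adjusted p = 0.013). In pachytene and diplotene all its libraries lay between 4.14 and 10.8 FPKM. Zfp622 and Zfp593, both factors in the making of the large ribosomal subunit, were higher as well. Zfp622 stood at 3.26 and 4.7 against 10.3 and 9.25 FPKM (1.13 ± 0.23, limma, adjusted p = 0.016), and Zfp593 at 4.74 and 4.75 against 7.89 and 13.8 FPKM (1.00 ± 0.25, limma, adjusted p = 0.033). Zfp143, an activator of snRNA and messenger RNA promoters, stood at 5.64 and 4.73 against 13.3 and 9.52 FPKM (0.99 ± 0.28, limma, adjusted p = 0.0495). In none of these genes did the genotypes overlap in meiosis II, but this was a condition for naming them and adds no support. Zfp82, Zfp87, Zfp672 and Zfp511 complete the 8, with differences of 1.04, 0.95, 0.93 and 0.83.

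Among members lower in Cxxc1-null meiosis II, Zfp389 stood at 21.1 and 14.1 FPKM in WT and 2.76 and 4.37 in Cxxc1-null cells, a difference of -2.02 ± 0.37 (limma, adjusted p = 0.0093). Zfp367 stood at 26.5 and 13.5 against 6.43 and 3.64 FPKM (-1.77 ± 0.41, limma, adjusted p = 0.024). Zfp800 stood at 27.7 and 18.9 against 7.46 and 5.84 FPKM (-1.65 ± 0.27, limma, adjusted p = 0.0059). All 3 also fell from diplotene to meiosis II in Cxxc1-null cells. In WT only Zfp389 and Zfp367 passed over that step, whose meiosis II libraries are those of the genotype comparison. Zfp54 and Zfp263 followed with -1.39 and -1.36. Zfp251, Zfp664, Zfp644, Zfp346 and Zfp319 complete the 10, with -1.29 to -0.87, and Zfp644 encodes a partner of the H3K9 methyltransferases G9a and GLP. Of these, Zfp664 had the tightest libraries, 9.35 and 9.19 FPKM in WT and 3.3 in both Cxxc1-null libraries. The 5 largest differences in each direction all lost their call without WT meiosis II replicate 1 or in a fit of only these 2 groups. Their highest adjusted p over 12 alternatives ran from 0.055 for Zfp800 to 0.24 for Zfp54, with no change of sign.

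**Figure D5:**
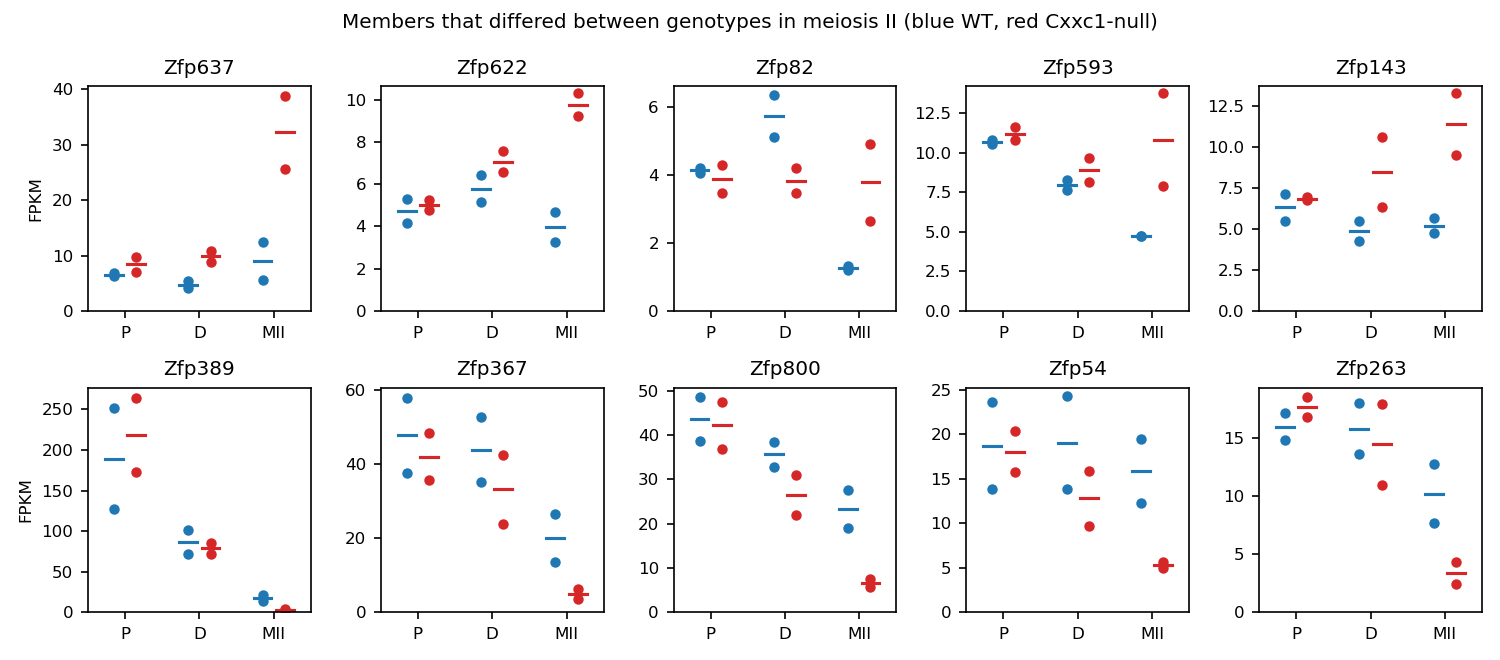
FPKM in each library (points) and the group mean (line) for the 5 members with the largest increase (top) and decrease (bottom) in Cxxc1-null against WT meiosis II, by stage (P, pachytene; D, diplotene; MII, meiosis II), WT in blue and Cxxc1-null in red. The vertical scale differs between panels and starts at 0. The 2 genotypes overlap or lie close in P and separate in MII, where a lack of overlap was a condition for showing a gene.

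Averaged over the 3 stages, 29 members differed between genotypes, 19 higher and 10 lower in Cxxc1-null cells (14.2%). Of all genes tested 16.7% differed (11.5% higher and 5.13% lower), and of genes that pass the same level rule 16.3%. After quantile normalization the members' split was 13 higher and 14 lower, where 9.8% of all genes tested were higher and 8.55% lower. The excess of higher members thus depends on the scaling, and over all genes tested it also shrank. The average joins the 3 stage differences, so it shares its libraries with them. When libraries of a genotype with the same replicate number were joined over stages, which leaves 2 residual degrees of freedom, 0 members passed (27 at an unadjusted p under 0.05). Leaving out any 1 diplotene, meiosis II or Cxxc1-null pachytene library gave 12 to 19 calls, the fewest, 12, without Cxxc1-null pachytene replicate 1. Of the 29, 7 higher and 3 lower members did not reach 1 FPKM in all 12 libraries.

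Zfp637 again differed most upward (1.01 ± 0.20, limma, adjusted p = 0.0099). Zfp57 was 0.403 and 1.92 FPKM in WT against 2.23 and 2.02 in Cxxc1-null pachytene, 3.16 and 3.35 against 9.08 and 9.71 in diplotene, and 26.4 and 24 against 42.5 and 31 in meiosis II. The Cxxc1-null libraries were above both WT libraries at each stage, with an average difference of 0.81 ± 0.18 (limma, adjusted p = 0.016). A mean difference of the same sign in each stage was a condition for naming genes from this average. That agreement adds no support. Zfp87 was above WT at each stage too, with 1.47 and 1.41 against 0.758 and 0.161 FPKM in pachytene, 0.762 and 0.926 against 0.227 and 0.264 in diplotene and 11.3 and 8.96 against 5.04 and 4.4 in meiosis II (0.76 ± 0.13, limma, adjusted p = 0.0048). It reached 1 FPKM in 6 libraries, 2 of them WT, so the level rule favours a gene with this pattern. Zfp72, Zfp958, Zfp474, Zfp819 and Zfp259 (Zpr1, a partner of the survival motor neuron protein) were higher by 0.76 to 0.83.

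Downward, Zfp251 had the smallest adjusted p. It stood at 2.85 and 3.46 FPKM in WT against 2.48 and 2.17 in Cxxc1-null pachytene, 4.71 and 4.73 against 2.88 and 2.86 in diplotene, and 3.76 and 4.38 against 1.1 and 1.04 in meiosis II. All 6 Cxxc1-null libraries were below the WT libraries of their stage, by 0.73 on average (SE 0.11, limma, adjusted p = 0.0027). Here too the same sign in each stage was a condition for naming the gene. Zfp319, which stood at 1.38 and 1.66 against 0.463 and 0.286 FPKM in meiosis II, and Zfp664 differed by -0.61 ± 0.13 and -0.58 ± 0.11. Zfp800 and Zfp367 differed by -0.71 and -0.78, and Zfp940, Zfp217 (a partner of CtBP and LSD1) and Zfp318 by -0.58 to -0.51. Of the 16 largest, Zfp637, Zfp57, Zfp87, Zfp251, Zfp800, Zfp319 and Zfp664 lost their call only when stages were joined. The other 9 lost it in 2 to 13 of up to 20 alternatives.

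Members with known roles were grouped by hand. Beside their counts stand the shares of all 204 members in WT, 6.37% up and 14.2% down into diplotene and 7.84% up and 28.9% down into meiosis II, and for these short lists no difference from them was tested. Of 7 genes listed for the germ line or early development, 6 are members, and 3 rose into diplotene, 2 rose into meiosis II and 2 fell into it in WT. Zfp541, a partner of histone deacetylases in pachytene spermatocytes, went from 15 and 24.3 to 36.9 and 44.5 FPKM (1.05 ± 0.28, limma, adjusted p = 0.021) and stood at 46.5 and 52.5 in meiosis II. Its Cxxc1-null values were 19.4 and 13.4, then 28 and 37.5, then 40.6 and 35.9 FPKM, and no genotype difference passed. Zfp42 (Rex1, a pluripotency marker) went from 29.9 and 24.7 to 14.9 and 11.6 FPKM into meiosis II (-0.99 ± 0.26). Zfp809, which silences murine leukaemia proviruses, went from 17.7 and 14.1 to 6.86 and 7.11 FPKM, and averaged over stages it was higher in Cxxc1-null cells by 0.46 ± 0.13 (limma, adjusted p = 0.033). Of 16 genes listed for RNA, ribosome or ubiquitin functions, 12 are members, with 3 that fell into diplotene and 2 up and 2 down into meiosis II. Zfp451, a SUMO ligase, went from 24.9 and 23.3 to 74.5 and 64.7 FPKM over that step. Of 18 listed DNA-binding factors outside the KRAB class, 10 are members, and 4 fell into meiosis II with 0 that rose. They include Zfp281, a GC-box factor of pluripotent cells, at 8.81 and 8.44 against 3.92 and 3.18 FPKM, and Zfp410, an activator of Chd4, at 9.6 and 6.34 against 2.42 and 1.93 FPKM.

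Co-repressors through which KRAB proteins act, and related zinc finger families, were read beside the members. Of 31 listed co-repressor and heterochromatin genes 28 were tested. Into meiosis II in WT 2 rose and 8 fell, with a median log2 change of -0.19, where 26.1% of all genes tested rose and 18.9% fell. Into diplotene 0 rose and 6 fell, where 9.08% rose and 17.4% fell. In Cxxc1-null against WT meiosis II, Hdac2, a histone deacetylase, was higher, at 48 and 46.9 against 15.5 and 9.68 FPKM (1.87 ± 0.37, limma, adjusted p = 0.014). Mphosph8, an H3K9 methylation reader of the HUSH complex, was lower, at 14.7 and 13.8 against 38 and 23.3 FPKM (-1.02 ± 0.27, limma, adjusted p = 0.04). No other gene of the list passed there. Of the related families, 2 of 8 Zscan-numbered genes were lower and 0 higher averaged over stages, 1 of 7 Zkscan-numbered genes was lower, and of 27 Zbtb-numbered genes 6 were lower and 1 higher, where 5.13% of all genes tested were lower and 11.5% higher. In meiosis II 9 Zbtb-numbered genes were lower and 2 higher, where 4.35% and 6.14% of all genes were. Zkscan17 was the only one of these lower at a single earlier stage, with 7.92 and 11.6 against 30.7 and 56.7 FPKM in diplotene (-2.01 ± 0.38, limma, adjusted p = 0.043).

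Returning to the promoters, the members lower in Cxxc1-null cells had a higher median CG count per window than the rest. Counts were averaged over a gene's windows. These differ widely in some lower members, with 7 and 49 in Zfp217 and 14 and 41 in Zfp800. Averaged over stages, the 9 lower members with a RefSeq window had a median of 28.5 CG, with quartiles of 27.5 and 39. The 16 higher members had 14.8 (10.5 to 20), and the 146 that did not pass had 17 (10.2 to 21). In meiosis II the 8 lower members had a median of 28, the 6 higher ones 21 and the other 157 had 16. Zfp664 and Zfp367, printed above, are among the lower ones, and Zfp637 is among the higher. Some lower members hold fewer CG than these medians. They include Zfp940 (10) and Zfp174 (15) for the average over stages, and Zfp54 (9) and Zfp346 (19) in meiosis II. The groups overlap and these small lists were read after the calls, with no test. Over the 171 members the CG count correlated only weakly with the log2 difference, and no finding is drawn from it. The Pearson r was -0.17 averaged over stages and -0.10 in meiosis II. For the WT step into meiosis II the medians were 15 in the 13 risers, 17 in the 45 fallers and 17 in the rest.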

How the data were processed

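The authors deposited 1 table of FPKM values for 12 RNA libraries, and per the submitters' processing notes TopHat2 2.1.1, Cufflinks 2.2.1 and the mm9 build were used, with roles not given. FPKM is not a count, fragment numbers are not given in the sources used here, and steps in the lowest values did not return reads, so depth is unknown. The sum of FPKM was 689495 to 926622 per library. Libraries were grouped by title. The 8 ChIP libraries were not analysed here.

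Values were taken as log2(FPKM + 1). The 12956 genes that reached 1 FPKM in 2 or more libraries entered 1 limma 3.58.1 model in R 4.3.3 with a mean per group, 6 residual degrees of freedom, a variance trend and Benjamini-Hochberg adjustment at 0.05. Contrasts were Cxxc1-null minus WT in each stage and averaged, the later minus the earlier stage in each genotype, and the F test of genotype by stage. The model was tested on simulated data.

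Named members are those with the 8 highest means, up to 5 differences per direction within a stage (with no overlap of genotypes), 8 averaged over stages (with the same sign in each), 6 per WT step, and members with a listed role. Others were named after their values were seen. Members and lists were chosen with earlier results of these data known. Symbols (196 directly, 8 by synonym), chromosomes, gene neighbours and promoters come from RefSeq GRCm38.p6. Strand is not stated, so overlapping genes are uncertain. Alternatives were pseudocount, filters, scaling, separate fits, a replicate block, other member rules and each library left out.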

Additional observations from a re-analysis of the deposited data

Results flagged for a closer look

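Zfp82 moved in opposite directions in diplotene and meiosis II. In diplotene both Cxxc1-null libraries (3.46 and 4.21 FPKM) lay below both WT libraries (6.36 and 5.1), and in meiosis II both (4.91 and 2.65 FPKM) lay above WT (1.21 and 1.33). The Cxxc1-null minus WT difference was higher by 1.51 on the log2(FPKM + 1) scale in meiosis II than in diplotene. The F test of genotype by stage gave an unadjusted p of 0.00507 in limma and an adjusted p of 0.292 over all genes tested, so the difference between stages did not pass.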

How the results depend on the processing

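Of the counts of members called under each alternative, 161 stayed within 1.5 times the reported one and 40 did not. The 161 include counts of 0 that stayed 0, between genotypes in pachytene and diplotene and in the F test. They also include alternatives that left out a library outside the groups compared, so the tally is a lenient one. A fit of only the compared groups gave 0 in meiosis II between genotypes and 0 for WT pachytene to diplotene. Without a filter, the count averaged over stages was 19 and the Cxxc1-null pachytene to diplotene count 33. Without WT pachytene 2 and Cxxc1-null diplotene 2 they were 18 and 33. Joining stages by replicate number gave 0 averaged over stages. Only 115 members reached 5 FPKM or more in 6 libraries, so counts among them come from a smaller set. These counts were 18 averaged over stages, 24 and 39 for the 2 WT steps, and 34 and 44 for the Cxxc1-null steps. They are lower partly because fewer members were counted. Leaving out 1 library gave 0 to 1 in diplotene, 2 to 20 in meiosis II, 12 to 29 averaged over stages, 8 to 55 and 55 to 84 for the WT steps, and 2 to 58 and 47 to 82 for the Cxxc1-null steps. Of 50 calls of named members, 12 passed under every alternative applied to them, all of them WT changes into meiosis II, and 0 changed sign. For these calls, single libraries were left out only from the groups compared.

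Equal replicate numbers were not taken as pairs. Deviations of same-numbered libraries correlated at 0.12 to 0.42 within a genotype and at -0.25 to 0.32 across genotypes. With the replicate block the counts were 27 in meiosis II, 36 averaged over stages, 56 and 92 for the WT steps, and 66 and 94 for the Cxxc1-null steps. With the replicate block within genotype, an alternative added after seeing the data, they were 66 and 95 for WT and 75 and 99 for Cxxc1-null. With 2 libraries per group and no depth, small differences of low members were not detectable.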
